A study of Homo sapiens with 6 samples.

Results

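IFITM1, IFITM2 and IFITM3 are neighbouring interferon-induced transmembrane protein genes on chromosome 11. The rows of 4 ChIP-seq peak lists that overlapped these genes or the 5 kb around them were taken as the members' data, which gave 22 regions of 152902 in all. HSC3 is an established oral squamous cell carcinoma (OSCC) cell line. Cells were transfected with a control siRNA (siCONT) or with siDLEU1, an siRNA against the long noncoding RNA DLEU1, and were collected after 72 h. For each mark, H3K27ac and H3K4me3, 1 library came from siCONT and 1 from siDLEU1 cells. There was therefore no replicate check on any value, no p-value was computed, and a difference describes these libraries and not the siRNA in general. The paper's results and a figure legend name siDLEU1-2 as the siRNA used. Peak lists hold no transcript levels, so the depletion of DLEU1 was not checked here.

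IFITM proteins are small membrane proteins that limit the entry of many enveloped viruses into cells. IFITM1 resides largely at the plasma membrane, whereas IFITM2 and IFITM3 are found mostly on endosomes, where they block fusion of the viral and endosomal membranes. Their genes are induced by interferons, and interferon-stimulated response elements (ISRE) and gamma-activated sites (GAS) are the DNA elements through which interferons act on promoters. H3K4me3 marks the starts of active or poised genes, and H3K27ac marks active promoters and enhancers.

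In GRCh37 (hg19), IFITM2 lies on the plus strand from 303655 to 309397, with its canonical transcription start site (TSS) at 307816 and exons at 307816 to 308438 and 309013 to 309395. IFITM1 lies on the plus strand from 310041 to 315272, with its canonical TSS at 314040 and exons at 314040 to 314356 and 314922 to 315272. IFITM3 lies on the minus strand from 319676 to 329475, with its canonical TSS at 320860, exon 1 from 320565 to 320860 and exon 2 from 319676 to 319990. The window of the 3 genes and 5 kb on either side spans chr11:298655-334475, or 35821 bp. IFITM1 and IFITM3 thus face each other with their 3′ ends, and IFITM2 precedes IFITM1 in the same orientation.

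The promoters of IFITM1 and IFITM3 are shown because both hold paired ISRE cores close to the TSS. The regions of these genes differed in the comparisons that follow, and a link with the cores was not tested. The sequences are from RefSeq (GRCh38.p14), and each matched the GRCh37 sequence at 1 place in the first part of chromosome 11, at chr11:313910-314059 on the plus strand for IFITM1 and at chr11:320841-320990 on the minus strand for IFITM3. Each line gives 130 bases before the TSS and 20 bases from it, 5′ to 3′, with matches to the ISRE core in capitals.
IFITM1: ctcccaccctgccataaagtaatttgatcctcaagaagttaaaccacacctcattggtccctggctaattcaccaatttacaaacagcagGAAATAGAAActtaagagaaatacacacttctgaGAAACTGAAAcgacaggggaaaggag
IFITM3: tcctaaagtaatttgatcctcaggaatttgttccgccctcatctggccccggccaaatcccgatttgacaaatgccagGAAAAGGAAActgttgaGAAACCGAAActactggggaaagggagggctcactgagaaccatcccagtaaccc

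The ISRE core searched was GAAANNGAAA on both strands. It was found at positions −40 to −31 and −6 to 4 from the IFITM1 TSS and at −52 to −43 and −35 to −26 from the IFITM3 TSS, with no position 0. Of 35116 RefSeq promoter windows, 3.57% held this core and 0.259% held it at least 2 times. The GAS core TTCNNNGAA, which reads the same on both strands, was found at −12 to −4 in IFITM1, where it overlaps the second ISRE core, and in 7.66% of all windows. No GAS core was found in the IFITM3 window and neither core in that of IFITM5. The windows of IFITM1 and IFITM3 were 60.8% identical over 329 aligned columns. IFITM2 and IFITM10 were not in the promoter table. These matches are letters in a window, and binding was not measured.

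The 3 loci share long stretches of sequence with one another. A stretch of 1672 bp between IFITM2 and IFITM1, at chr11:310165-311836, had an inverted copy at the 3′ side of IFITM3, at chr11:317945-319615, with 99.7% identity, 4 mismatches and 1 gap. IFITM2 and IFITM3 shared an inverted copy of 1592 bp that takes in all but the 3′ ends of their transcripts, with 94.7% identity, and IFITM2 and IFITM1 a direct copy of 874 bp with 94.1% identity. Of all stretches of 100 bases in the canonical transcript, 13.7% of those in IFITM1, 15.1% in IFITM2 and 16.4% in IFITM3 had an exact copy elsewhere in the cluster. In the rest of the genome, 19 matches to the window held at least 100 exact bases, and 0 of them touched a canonical transcript of the 3 genes. A read from a copied stretch can be placed at either copy, and its placement in these libraries was not tested.

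For H3K27ac, 19705 regions were called in the siCONT library and 17672 in that of siDLEU1. For H3K4me3, the numbers were 58582 and 56943. MACS2, the peak caller, computes the fold enrichment and p of a region from the whole number of fragments at its summit, so this number could be solved for 100% of the regions, to within 0.05 of a whole number. With a mappable genome of 2.7 Gb assumed, depth came to 21.5 M and 29.4 M reads for H3K27ac and 28.4 M and 22.3 M for H3K4me3, against control libraries of 7.18 M and 6.73 M reads. Fragments at a summit are also given as RPM, the fragments per 1 M reads of their library. KRT5 and KRT14, keratins of squamous epithelium, had regions at the TSS in all 4 lists, with percentiles of 65.1 and above. TP63, also chosen as a squamous marker, had no region at its canonical TSS in any of the 4 lists. Other starts of TP63 were not scored. The canonical TSSs of the leukocyte gene PTPRC and of the endothelial gene CDH5 had none either. These markers were chosen after earlier values of these data were known.

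In siCONT cells, each of the 3 genes had an H3K27ac region within 1 kb of its canonical TSS, and those of IFITM1 and IFITM3 covered the TSS itself. The region at IFITM2 ran from 308095 to 309107 and began 279 bp after the TSS, with its summit in the intron at 308775. At IFITM1 the region ran from 313942 to 315891 with its summit in the intron at 314713, and at IFITM3 from 318605 to 320892 with its summit in exon 1 at 320621. A separate region from 310169 to 311536 lay between IFITM2 and IFITM1 and fell entirely within the copied stretch of 1672 bp. A small region from 316030 to 316536, beyond the 3′ end of IFITM1, completed the 5 regions of this list. The map of called regions by distance from the IFITM1 TSS shows the layout of all lists.

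**Figure D1:**
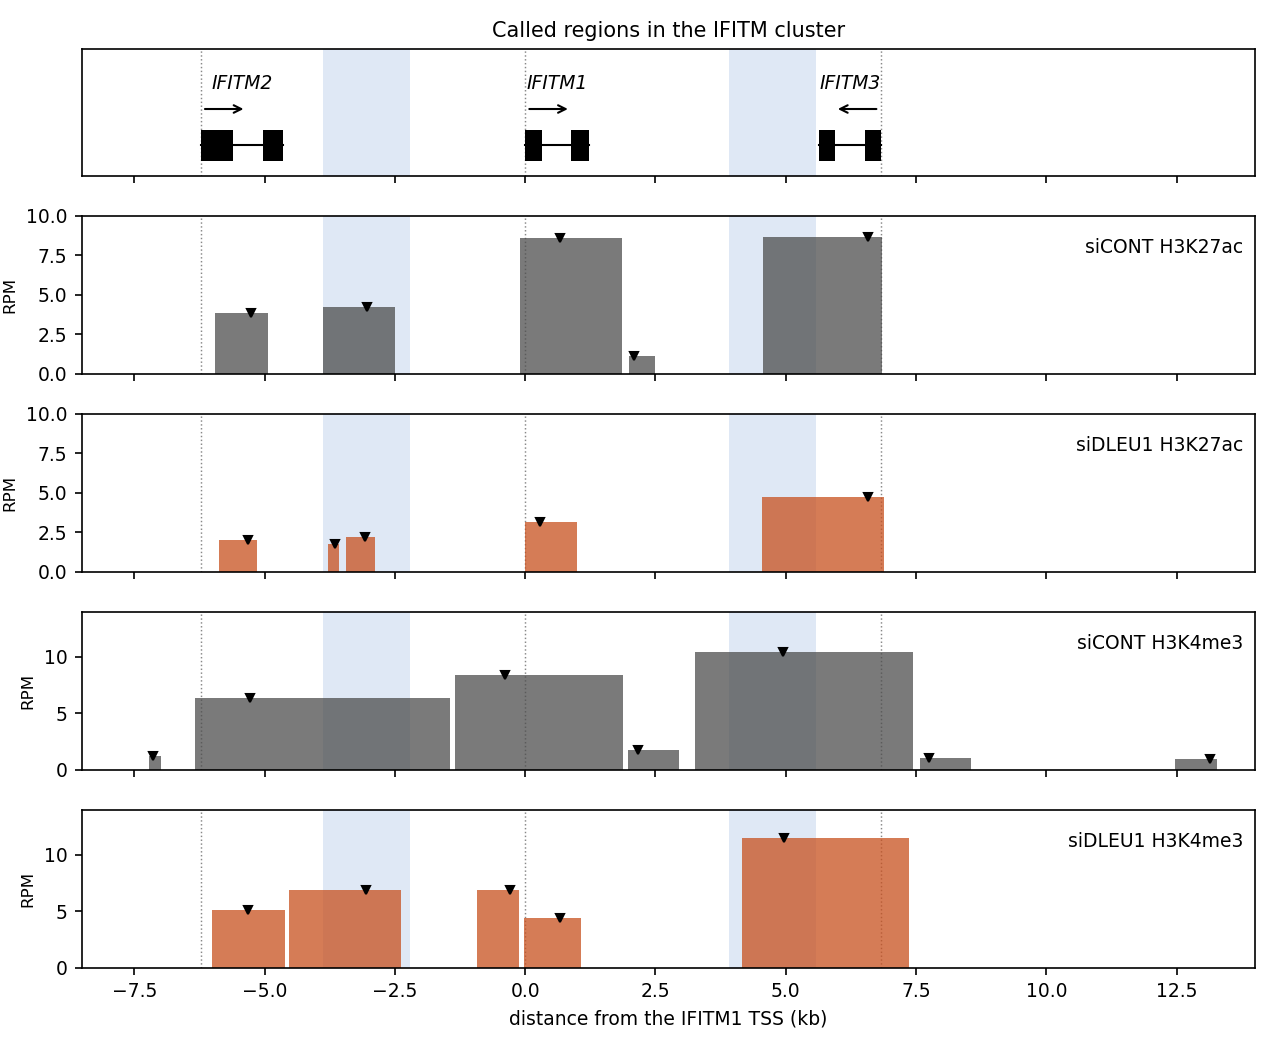
Regions of each list in the IFITM cluster by distance from the IFITM1 TSS in kb. The height of a box is the RPM at its summit (triangle), dotted lines are the 3 TSSs, black boxes are exons, arrows give the direction of transcription, and shaded stretches are the 2 copies that are 99.7% identical. The H3K27ac box at IFITM1 is narrower and lower in siDLEU1, the box at IFITM3 keeps its width, and the H3K4me3 boxes at IFITM2 and IFITM1 are broken up in siDLEU1.

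The number of fragments at the H3K27ac summits put IFITM1 and IFITM3 level in siCONT cells, and IFITM2 below both. IFITM1 had 185 fragments, or 8.61 RPM (95% interval 7.42 to 9.95). IFITM3 had 186 fragments, or 8.66 RPM (7.46 to 10.0). IFITM2 had 83 fragments, or 3.86 RPM (3.08 to 4.79). Intervals are exact Poisson intervals and cover counting error only, here and throughout. Within this library, IFITM1 over IFITM3 was 0.995 (0.807 to 1.23), so the 2 paralogs did not differ beyond counting error. IFITM1 over IFITM2 was 2.23 (1.71 to 2.92) and IFITM3 over IFITM2 was 2.24 (1.72 to 2.94).

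In siDLEU1 cells the H3K27ac values of IFITM1 and IFITM3 came apart. IFITM1 had 92 fragments, or 3.13 RPM (2.52 to 3.84). IFITM3 had 139 fragments, or 4.73 RPM (3.97 to 5.58). IFITM2 had 60 fragments, or 2.04 RPM (1.56 to 2.63). IFITM1 over IFITM3 was 0.662 (0.503 to 0.868) in this library, an interval that lies below 1. IFITM3 over IFITM2 was 2.32 (1.70 to 3.19), close to its value in siCONT cells, and IFITM1 over IFITM2 was 1.53 (1.10 to 2.16).

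All 3 members had a lower H3K27ac RPM in siDLEU1 than in siCONT cells, and so did most genes. The ratio of siDLEU1 to siCONT was 0.363 at IFITM1 (0.280 to 0.469), 0.528 at IFITM2 (0.372 to 0.745) and 0.546 at IFITM3 (0.435 to 0.684). Over the 12245 genes with a region at the canonical TSS in both lists, the median ratio was 0.579, with quartiles of 0.524 and 0.644. A ratio lower by 1.5 times or more was found at 3 of 3 members and at 81.2% of all genes. A change that all regions of a library share and the efficiency of its immunoprecipitation cannot be told apart with 1 library each. Fewer cells with the mark and less mark in each cell cannot be told apart either.

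Set against the median gene, IFITM1 was the member that stood lowest. Its ratio was 0.627 times that of the median gene (0.483 to 0.810), and 1.14% of genes with both regions had a ratio as low or lower. Genes with a region in siCONT but none in siDLEU1, 5.14% of those with one in siCONT, have no ratio and are left out of such shares. The ratio of IFITM2 was 0.912 times that of the median gene (0.643 to 1.29) and the ratio of IFITM3 0.943 times (0.751 to 1.18), and 26.7% and 34.6% of genes had a ratio as low. IFITM2 and IFITM3 thus lay within the middle of the distribution, as the plot of ratios over all genes shows. The ratio at IFITM1 divided by that at IFITM3, which needs no depth, was 0.665 (0.477 to 0.928, counting error, normal approximation on the log scale). For IFITM1 over IFITM2 it was 0.688 (0.454 to 1.04), and for IFITM2 over IFITM3 it was 0.967 (0.650 to 1.44), so these pairs did not differ beyond counting error. IFITM2 was measured with the fewest fragments, and the interval of its ratio was the widest of the 3. Of the stretches of 100 bases over the H3K27ac summit, 94% in siCONT and 84% in siDLEU1 had an exact copy in the cluster at IFITM2, 45% and 0% at IFITM1, and 0% in both at IFITM3, and the part of this in the ratios was not tested.

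**Figure D2:**
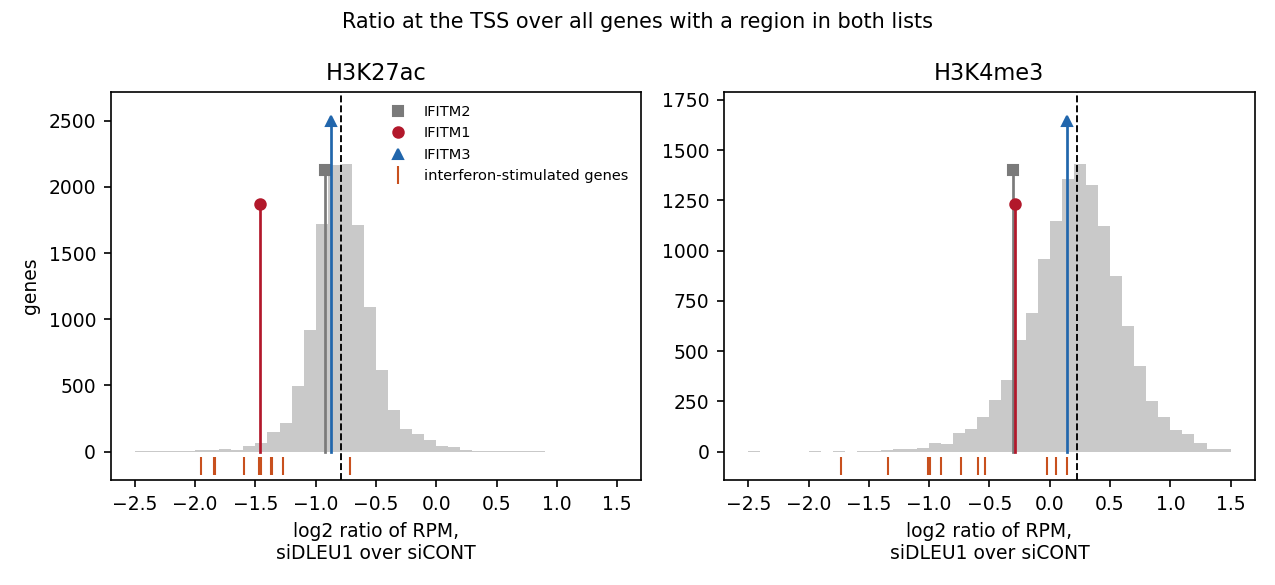
Histograms of the log2 ratio of RPM at the TSS, siDLEU1 over siCONT, over genes that had regions in both libraries (12245 for H3K27ac, 12373 for H3K4me3). The dashed line is the median gene, stems with symbols are the 3 members, whose heights carry no value, and ticks under the axis are the 10 and 11 listed interferon-stimulated genes with a ratio. A few genes beyond the axis range are not drawn (2 and 28). For H3K27ac, IFITM1 lies among the ticks in the low tail, while IFITM2 and IFITM3 lie near the median.

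The width of the H3K27ac regions separated the members in the same order. At IFITM1 the region was 1950 bp wide in siCONT and 1004 bp in siDLEU1 cells, from 314037 to 315040, a ratio of 0.515. It reached 98 bp upstream of the TSS in siCONT and 3 bp in siDLEU1, and covered 100% and 81.2% of the canonical transcript. Its summit lay 673 bp after the TSS, in the intron, in siCONT and 276 bp after it, in exon 1, in siDLEU1. At IFITM2 the region was 1013 and 736 bp wide, from 308160 to 308895 in siDLEU1, and covered 64.1% and 46.6% of the transcript. IFITM3 kept its region, which was 2288 bp wide in siCONT and 2326 bp in siDLEU1, from 318591 to 320916, and covered the whole transcript in both. Among genes with both regions, the median width ratio was 0.796, and 91.8% of them had a width ratio as low as that of IFITM3 or lower. A region narrower by 1.5 times or more was found at 1 of 3 members and at 32.9% of genes.

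Outside the promoters, the H3K27ac region between IFITM2 and IFITM1 was replaced in siDLEU1 cells by narrower ones of 204 and 562 bp, at 310260 to 310463 and 310597 to 311158. Their summits had 52 and 65 fragments, or 1.77 and 2.21 RPM, against 91 fragments, or 4.24 RPM, in siCONT cells. All of these bases are in the copied stretch, as are 1011 bp of the IFITM3 region in siCONT cells, and 79.9% of the stretches of 100 bases in the siCONT region between the genes had an exact copy. The region beyond the 3′ end of IFITM1, with 24 fragments in siCONT cells, had no counterpart in siDLEU1 cells. In the whole window, H3K27ac covered 7126 bp in siCONT and 4832 bp in siDLEU1, a ratio of 0.678, beside 0.714 for the covered length of the whole lists. The covered length at the cluster was therefore lower by about as much as elsewhere.

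Fold enrichment and fragment counts gave the same order of the differences between siDLEU1 and siCONT, but a different sign at IFITM3. The fold enrichment of MACS2 divides the fragments at a summit by the local background in the control library, and it was ranked here as a percentile within each list. By this measure the H3K27ac percentile was 94.2 in siCONT and 60.3 in siDLEU1 at IFITM1, a difference of −33.9 points. IFITM2 was at 61.2 and 42.0, a difference of −19.2 points. IFITM3 was at 71.5 and 98.6, a difference of 27.1 points. A percentile lower by 10 points or more was found at 2 of 3 members and at 36.9% of genes with a region in siCONT cells. Genes without a region in siDLEU1 are included here. A difference as low as that of IFITM1 was found at 7.06% of these genes with a siCONT region, and one as low as that of IFITM2 at 20.6%. A percentile higher by 10 points or more was found at 1 of 3 members and at 17.1% of these genes, and 3.71% of them were higher by as much as IFITM3. The median difference over genes with both regions was −3.64 points.

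Ranked by fragments at the summit in place of fold enrichment, IFITM3 was at the 98.3rd percentile in siCONT and the 96.8th in siDLEU1 cells, a difference of −1.51 points. IFITM1 was at 98.2 and 73.9, a difference of −24.3 points, and IFITM2 at 55.7 and 41.5, a difference of −14.1 points. The direction at IFITM1 and IFITM2 was thus the same by both measures, and that at IFITM3 was opposite. The fold enrichment itself was 21.1 and 21.5 at IFITM3, but 31.4 and 11.03 at IFITM1 and 18.0 and 8.64 at IFITM2.

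**Figure D3:**
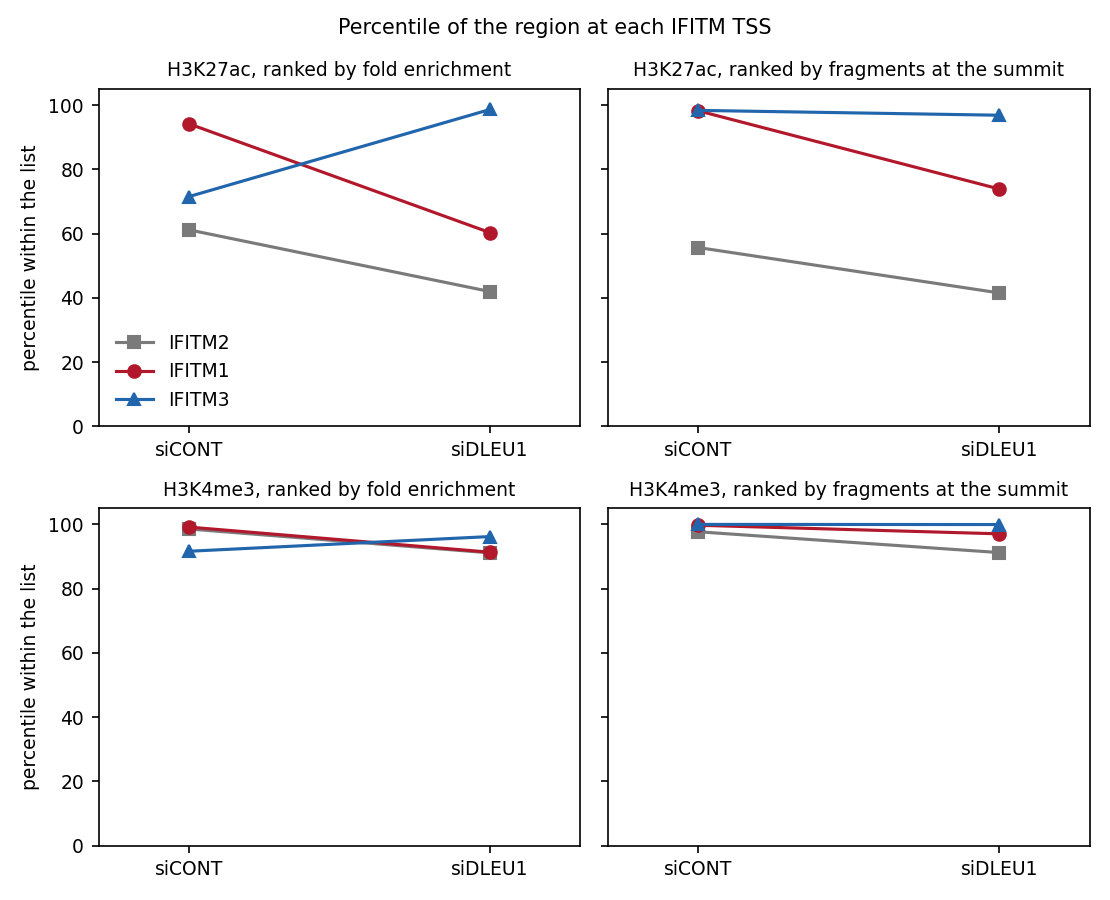
Percentile of the region at each IFITM TSS within its list (vertical axis, 0 to 100) in siCONT and siDLEU1, 1 library each, for H3K27ac (upper panels) and H3K4me3 (lower panels), ranked by fold enrichment (left) or by fragments at the summit (right). By fold enrichment the lines of IFITM1 and IFITM3 cross for both marks, whereas by fragments IFITM3 stays above 96 and IFITM1 is lower in siDLEU1.

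The local background also differed between the libraries at IFITM3. At its H3K27ac summit the local control was 4.02 times the genome-wide background in siCONT and 1.20 times in siDLEU1, a ratio of 0.299. The siCONT value rested on 2 control fragments over the summit, with a 95% interval of 0.487 to 14.5 times the background, which holds the siDLEU1 value. At IFITM1 the local control was 2.01 and 2.28 times the background, each from 1 control fragment, and at IFITM2 it was 1.20 and 1.61 times. A local control lower by 1.5 times or more was found at 1 of 3 members and at 21.7% of genes. Coverage at the summit over the genome-wide mean of the ChIP library, which uses no local control, was 125 and 72.5 at IFITM3, 124 and 48.0 at IFITM1, and 55.8 and 31.3 at IFITM2. By this measure all 3 members were lower in siDLEU1, and IFITM1 by the most. It is RPM times a constant of each library, so it adds nothing to the comparison by RPM.

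**Figure D4:**
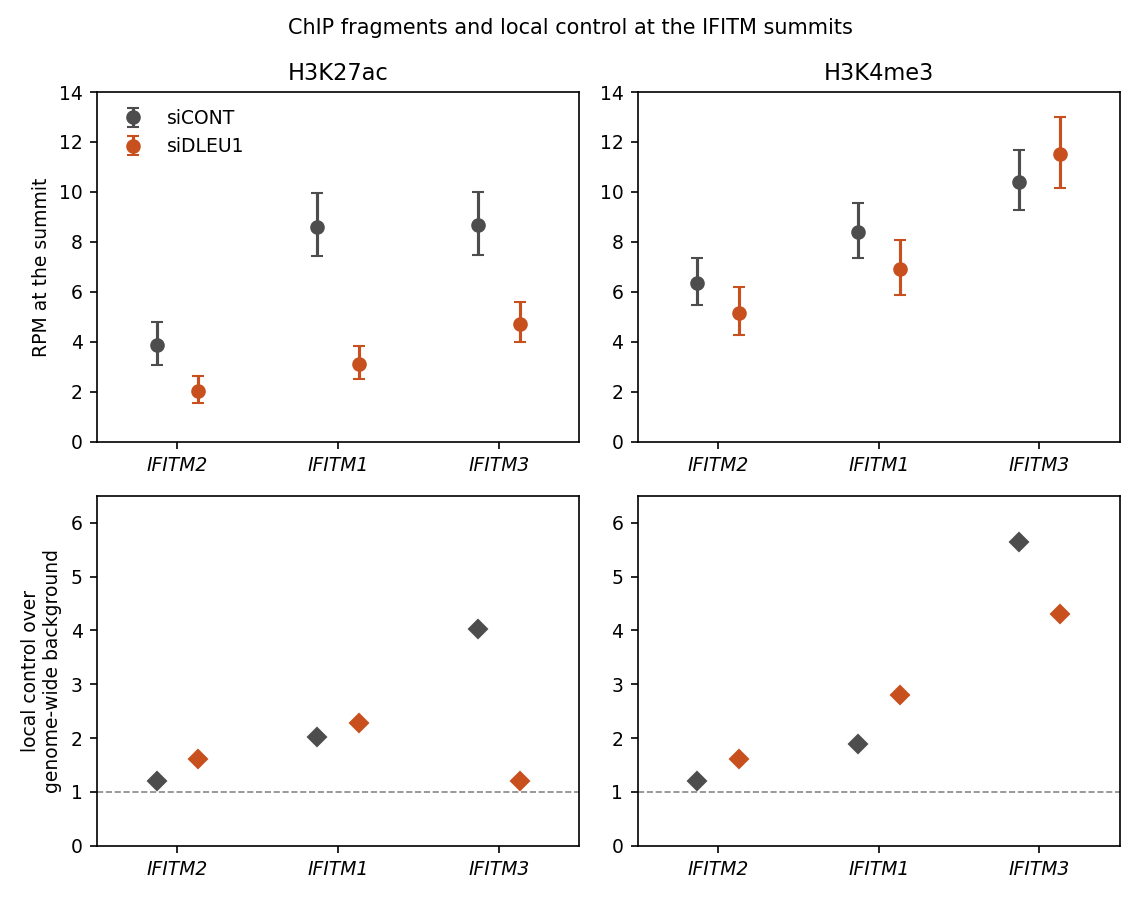
RPM at the summit of the region at each TSS, with exact 95% Poisson intervals for counting error (upper panels), and the local control over the genome-wide background of the control library (lower panels, dashed line at 1), for H3K27ac and H3K4me3 in siCONT and siDLEU1, 1 library each. The H3K27ac fragments of each gene are lower in siDLEU1, and the local control at IFITM3 is lower in siDLEU1 for both marks.

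H3K4me3 spread over most of the stretch from IFITM2 to IFITM3 in siCONT cells. A region of 4878 bp, from 307712 to 312589, took in IFITM2 and the copied stretch behind it, with its summit at 308765 in the IFITM2 intron. The region of IFITM1 was 3220 bp wide, from 312702 to 315921, with its summit at 313662 before the TSS, and was separated from the first by a gap of 112 bp. The region of IFITM3 was 4181 bp wide, from 317295 to 321475, with its summit at 318982, beyond the 3′ end of the transcript and in the copied stretch. Smaller regions at 306830, 316013, 321624 and 326507 had 27 to 51 fragments each.

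In siDLEU1 cells H3K4me3 was broken up at IFITM2 and IFITM1, and less so at IFITM3. The IFITM2 region ran from 308028 to 309424, 1397 bp wide, and began 212 bp after the TSS, while in siCONT cells it began at −104 from the TSS. A region of 2159 bp followed it, from 309504 to 311662, with a gap of 79 bp between them. At IFITM1 a region of 802 bp, from 313123 to 313924, lay before the TSS and another of 1093 bp, from 314011 to 315103, began 29 bp before the TSS, with a gap of 86 bp. The gap spans −115 to −30 from the TSS and takes in the first of the ISRE cores shown for IFITM1. It is shorter than the fragment length of this library, 186 bp, so it cannot place a loss of the mark at that core. IFITM3 kept a single region of 3208 bp, from 318203 to 321410, which began at −550 from the TSS against −615 in siCONT cells. The 4 smaller regions of siCONT cells had no counterpart.

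The width of the single region scored at the TSS was the H3K4me3 measure in which IFITM1 and IFITM2 differed most from other genes. The region at IFITM1 had 0.249 times its siCONT width and that at IFITM2 0.286 times, and 0.647% and 1.06% of genes had a ratio as low. IFITM3 had 0.767 times its siCONT width, with 22.6% of genes as low, beside a median ratio of 0.943. A region narrower by 1.5 times or more was found at 2 of 3 members and at 13.9% of genes. A wide region that splits counts as narrower here, since only the region with the highest fold enrichment was measured. The region of 1093 bp at IFITM1 and that of 2159 bp after IFITM2 were thus left out in siDLEU1. The ratios and ranks of IFITM1 and IFITM2 therefore overstate the narrowing. The covered length of the whole window, which counts all pieces, was 15267 bp in siCONT and 8659 bp in siDLEU1. This is a ratio of 0.567, beside 0.917 for the whole lists. Without both copies of the stretch of 1672 bp the ratio was 0.482. With a −log10 q of at least 10, which leaves out the 4 smaller siCONT regions, the ratio in the window was 0.705. The H3K4me3 library of siDLEU1 was the shallower, with 22.3 M against 28.4 M reads, and the part of depth in these widths was not tested.

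The height of H3K4me3 differed less than its width. IFITM1 had 239 fragments in siCONT, or 8.40 RPM (7.37 to 9.54), and 154 in siDLEU1, or 6.90 RPM (5.85 to 8.08). IFITM2 had 181 fragments, or 6.36 RPM (5.47 to 7.36), and 115, or 5.15 RPM (4.25 to 6.19). IFITM3 had 296 fragments, or 10.4 RPM (9.26 to 11.7), and 257, or 11.5 RPM (10.2 to 13.01). The intervals of the 2 libraries overlapped at each gene. The ratio of siDLEU1 to siCONT was 0.821 (0.666 to 1.01) at IFITM1, 0.810 (0.635 to 1.03) at IFITM2 and 1.11 (0.932 to 1.31) at IFITM3, and each interval held 1. The median gene had a ratio of 1.17, with quartiles of 0.987 and 1.37 over 12373 genes. Relative to it, IFITM1 stood at 0.703 (0.571 to 0.865), IFITM2 at 0.694 (0.544 to 0.881) and IFITM3 at 0.948 (0.799 to 1.12). Of all genes, 10.0%, 9.12% and 41.3% had a ratio as low as these members. A ratio lower by 1.5 times or more was found at 0 of 3 members and at 3.08% of genes.

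Between paralogs, the H3K4me3 order was IFITM3, IFITM1 and IFITM2 in both libraries. IFITM3 over IFITM2 was 1.64 (1.35 to 1.98) in siCONT and 2.23 (1.79 to 2.81) in siDLEU1 cells. IFITM1 over IFITM3 was 0.807 (0.678 to 0.961) and 0.599 (0.488 to 0.735), and IFITM1 over IFITM2 was 1.32 (1.08 to 1.61) and 1.34 (1.04 to 1.72). The ratio at IFITM1 divided by that at IFITM3 was 0.742 (0.571 to 0.965), and the same for IFITM2 over IFITM3 was 0.732 (0.549 to 0.975). For IFITM1 over IFITM2 it was 1.01 (0.744 to 1.38). By these summits, IFITM1 and IFITM2 had lower ratios of siDLEU1 to siCONT than IFITM3 for H3K4me3. For H3K27ac IFITM1 alone had an interval against IFITM3 below 1. The H3K4me3 summits of IFITM3, at 318982 in siCONT and 319014 in siDLEU1, lay beyond the 3′ end of its transcript, in the copied stretch. Of the stretches of 100 bases over the H3K4me3 summit, 2% at IFITM3 and 94% at IFITM2 had an exact copy elsewhere in the cluster in siCONT, and 30% and 77% in siDLEU1, beside 0% at IFITM1 in both. The part of read placement in these H3K4me3 ratios was not tested.

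By fold enrichment, the H3K4me3 percentiles of all 3 members stayed in the upper part of the lists. IFITM1 was at 99.1 and 91.3, IFITM2 at 98.6 and 91.1, and IFITM3 at 91.6 and 96.2, with differences of −7.81, −7.44 and 4.57 points. A percentile lower by 10 points or more was found at 0 of 3 members and at 19.2% of genes, and one higher by 10 points or more at 0 of 3 members and at 19.3% of genes. Ranked by fragments, the differences were −2.67, −6.47 and −0.0412 points. IFITM3 was at the 99.97th percentile by fragments in siCONT cells, among the highest H3K4me3 summits of the list. The local control at its summit was 5.64 and 4.32 times the background, a ratio of 0.765. A local control lower by 1.5 times or more was found at 0 of 3 members and at 20.5% of genes.

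The cluster was also read against the other genes around it. Of the 12 further genes within 100 kb of the window or of the IFITM family, IFITM5, a family member of bone-forming cells that lies beside IFITM2, NLRP6 and B4GALNT4 had no region of either mark. IFITM10 had no H3K27ac region and a single H3K4me3 region of 273 bp in siDLEU1 cells. The readthrough gene ENSG00000288681 shares the region of IFITM2 and adds no value of its own. PGGHG, which starts 9.5 kb before the window and encodes a hydrolase of collagen-linked sugars, was the neighbour with the lowest ratio of H3K27ac RPM, 0.423, and had percentiles of 67.3 and 33.3. SIRT3, a mitochondrial deacetylase, and PSMD13, a proteasome subunit, share a region with a ratio of 0.599, and BET1L and RIC8A share one with a ratio of 0.550. PKP3, a desmosomal plakophilin on the other side, had a ratio of 0.616. SIGIRR had an H3K4me3 region of 1721 bp in siCONT cells at the 83.6th percentile and none in siDLEU1 cells. The H3K27ac ratio of IFITM1, 0.363, was below those of the 6 neighbours with regions in both lists other than that of IFITM2. Some of these 6 share a region, as given above. The ratios of IFITM2 and IFITM3 lay between the 0.423 of PGGHG and the 0.550 of BET1L and RIC8A.

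Other interferon-stimulated genes named in the paper were set beside the members. Of 16 such genes, 15 carried H3K27ac at the TSS in siCONT cells, and 5 of these had none in siDLEU1 cells. The median ratio of H3K27ac RPM over the 10 genes with both regions was 0.363, and so was the ratio at IFITM1, against 0.579 for all genes. MX1, a GTPase that blocks viral replication, had a ratio of 0.361, and OAS2, a sensor enzyme of double-stranded RNA, had 0.259. HLA-F, of the antigen-presentation family, had 0.415. The 5 genes without a region in siDLEU1 cells were MX2, OAS1, OASL, IFI6 and XAF1. They have no ratio and are left out of the median of 0.363, which therefore describes only the genes that kept a region. Of all genes with a region in siCONT cells, 5.14% had none in siDLEU1 cells, and 0 of 3 members did. The median percentile difference by fold enrichment over the 15 genes was −24.9 points, and 14 of the 15 were lower in siDLEU1. IFITM3 was higher by this measure, as was the remaining listed gene. Ranked by fragments, the difference at IFITM3 was −1.51 points. The paper chose this list with these samples in view, so its direction is not independent evidence.

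Paralogs of other interferon-stimulated families also differed from each other. In the IFIT family, whose proteins bind foreign RNA, H3K27ac ratios ran from 0.360 at IFIT2 to 0.611 at IFIT1, with 0.365 at IFIT3 and 0.520 at IFIT5. In the OAS family, OAS1 and OASL had no H3K27ac region in siDLEU1 cells, while OAS3 had a ratio of 0.462 and percentiles of 68.1 and 70.0. For H3K4me3 the IFIT genes had ratios of 0.497 to 0.727, all below the 0.810 of IFITM2, and OAS1 had 0.301. The median H3K4me3 ratio of the 11 interferon-stimulated genes with both regions was 0.599, and 8 of them were below the lowest member. Of the 15 with an H3K4me3 region in siCONT cells, 4 had none in siDLEU1 cells, namely MX1, MX2, OASL and XAF1. They have no ratio and are left out of this median, and 0 of 3 members lost the region. Among all genes, 12766 had an H3K4me3 region in siCONT cells and 12373 had one in both lists. The range within the IFITM cluster, 0.363 to 0.546 for H3K27ac, was of the size seen within the IFIT family.

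Genes whose 4 percentiles by fold enrichment (2 marks, 2 siRNAs) were most like those of a member were found over 24135 genes. For IFITM1 they were PPP1R15A, EBAG9 and SIL1, which differed from it by at most 2.06, 2.07 and 2.31 points in any list. For IFITM2 they were COQ7 and its divergent transcript COQ7-DT, which share a region, at 2.45 points, and GRK7 at 2.91 points. For IFITM3 they were LINC03057 and LINC02086, which share a region, at 2.57 points, and COP1 at 2.60 points. None of these is in the list of interferon-stimulated genes used here. The likeness of IFITM3 to its nearest genes carries its local control with it, since it was measured on fold enrichment.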

How the data were processed

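The authors sequenced ChIP libraries on an Ion Proton system, mapped reads to hg19 with bowtie2 and called peaks per library with MACS2. Its version, settings and control are not given in the sources used here, and 2 input libraries were not analysed here. The deposited lists hold a fold ratio over local background, −log10 p and −log10 q. The deposited score, a display value, was not used.

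Regions on chromosomes 1 to 22 and X were used. Each gene took the region with the highest fold ratio within 1 kb of its canonical TSS, over 24135 genes of GENCODE v44 lifted to GRCh37 with a curated RefSeq transcript, 19140 of them protein-coding and 4995 lncRNAs. Fragments at the summit were solved from the fold ratio and p, and divided by the reads this implied. The recovery, overlap and rank steps were tested on simulated data. Ratio intervals are exact conditional binomial intervals at 95%. Copies were found with blastn 2.17.0. Python 3.11.15, numpy 2.4.6, pandas 2.3.3, scipy 1.17.1, Biopython 1.88 and matplotlib 3.10.9 were used.

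The genes named were the 3 members, IFITM5 and IFITM10, protein-coding genes within 100 kb, the 3 genes nearest to each member, and interferon-stimulated, IFIT and OAS genes. One gene of these lists is not reported here by name. The members and lists were chosen with earlier results of these data known. The squamous, leukocyte and endothelial markers were added later. Alternatives were other ranks, a −log10 q of at least 10, equal numbers of regions, windows of 3 and 5 kb, any TSS, stitching within 1 kb and other scalings.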

Additional observations from a re-analysis of the deposited data

How the results depend on the processing

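No paired analysis was possible because each siRNA and mark had 1 library and no result comes from a test. With 1 library each, immunoprecipitation efficiency, depth and siRNA cannot be told apart, intervals cover counting error only, and the placement of reads from copied stretches was not tested.

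Of 76 alternative values, 30 kept their direction and size, 39 moved and 7 turned. Percentile differences are given for IFITM1, IFITM2 and IFITM3 in this order. For H3K27ac they were −30.2, −17.5 and 8.12 points when ranked by −log10 p, −24.3, −14.1 and −1.51 when ranked by fragments, and −55.6, −41.2 and 35.5 with a −log10 q of at least 10. With equal numbers of regions they were −14.7 at IFITM2 and 30.4 at IFITM3. A window of 3 kb gave −23.4 at IFITM2. A window of 5 kb gave 4.48, −23.4 and 4.48, because IFITM1 then takes the region of another start, as does IFITM3. For H3K4me3 they were −5.07 at IFITM1 and 0.340 at IFITM3 when ranked by −log10 p, −2.67, −6.47 and −0.0412 when ranked by fragments, and −16.4, −15.5 and 11.1 with a −log10 q of at least 10. A window of 3 kb gave −4.65 at IFITM1 and −4.06 at IFITM2, as did the use of any annotated TSS, and a window of 5 kb gave −2.95, −4.65 and −2.95.

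Scaling fragments by the median over the 15334 overlapping H3K27ac regions, which itself was 0.584 in RPM, gave ratios of 0.622 at IFITM1, 0.904 at IFITM2 and 0.934 at IFITM3. Without scaling, IFITM1 was at 0.497 and IFITM3 at 0.747. For H3K4me3, where 44741 regions overlapped, the ratio at IFITM3 was 0.977 scaled by the median and 0.868 without scaling, so it fell on the other side of 1, and that at IFITM1 was 0.644 without scaling. Summing all regions at the TSS gave 1.34 for H3K4me3 at IFITM1, since 2 summits of siDLEU1 are then added against 1 of siCONT.

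The covered length of the window gave ratios for H3K27ac of 0.614 with a −log10 q of at least 10, 0.730 with equal numbers of regions and 0.641 without the copied stretch of 1672 bp. For H3K4me3 they were 0.705 with the stricter q, 0.631 over canonical transcripts and 1 kb, 0.532 with regions stitched and 0.482 without the copied stretch. The removal of the copied stretch, and coverage over the genome-wide mean, were chosen after seeing the data. That coverage gave ratios within counting error of the reported ones, which are counted among the 30 that kept their direction and size. It is RPM times a constant of each library, so this closeness was fixed in advance and is no check. The cause of the other differences was not tested.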
